A study of Caenorhabditis elegans with 6 samples.

Results

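The genes described here are 9 Caenorhabditis elegans genes of DNA repair and of the DNA damage checkpoint, followed as templates of small RNAs bound by the Argonaute protein WAGO-4. They were found in the deposited tables by gene identifier or sequence name, and are 9 of the 45510 genes in those tables. The 5 break repair genes are rad-51 (WBGene00004297), brc-1 (WBGene00000264), brd-1 (WBGene00000265), mre-11 (WBGene00003405) and rad-50 (WBGene00004296). The 4 checkpoint genes are atm-1 (WBGene00000227), atl-1 (WBGene00000226), hus-1 (WBGene00002042) and cep-1 (WBGene00000467).

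The study sequenced small RNAs from immunoprecipitates of WAGO-4 and asked how they differ after RNAi and in the descendants of treated animals. There are 6 libraries, 1 for each group. All come from animals carrying 3xFLAG::GFP::WAGO-4, labelled as young adults at 20 °C, and all were precipitated with an anti-FLAG antibody. No input RNA and no precipitate from untagged animals is among the libraries used here, so a level is an abundance in the precipitate and not an enrichment over the cell's small RNAs. The first untreated library has no treatment in its label. The second comes from animals after lin-15b RNAi. The third comes from animals on HT115, the bacterial strain used to feed dsRNA, with no dsRNA against a worm gene named. The other 3 come from animals treated with oma-1 dsRNA (P0), from their offspring (F1) and from the third generation (F3).

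The labels conflict on the age of the animals. The growth notes of HT115 and P0 speak of embryos held at several temperatures, and those of F1 and F3 of larvae released onto plates without food. The note of F3 also says that embryos received 50 mJ/cm2 of ultraviolet light. Ultraviolet light damages DNA, and if the note holds for the F3 library, irradiation and generation cannot be told apart in it. Each group is 1 library, so differences between groups lack a replicate check and p-values are left out. Intervals are at 95% and cover counting error only, since reads amplified by PCR without molecular identifiers are not independent molecules.

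RAD-51 is the recombinase that coats single-stranded DNA at a processed break and pairs it with an intact copy. MRE-11 and RAD-50 belong to the complex that binds and trims broken ends, while BRC-1 and BRD-1, the worm counterparts of BRCA1 and BARD1, form a ubiquitin ligase that promotes recombination. ATM-1 and ATL-1, the counterparts of the kinases ATM and ATR, signal breaks and stalled replication forks, HUS-1 is part of the ring-shaped clamp that helps to activate that signal, and CEP-1 is the worm p53, which drives germ cell death after damage. WAGO-4 is a germline Argonaute that carries secondary small RNAs, which are antisense to the messenger RNAs they are copied from. The gonad of an adult worm is where programmed breaks are made and repaired in meiosis and where these genes do much of their known work.

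Gene-assigned reads on both strands numbered 8667735 to 11309227 per library. Antisense reads were 55.6% of them in F1 and 69.6% to 77.8% in the other 4 libraries with separate strands. The targeted genes matched the labels: oma-1 had 1440 antisense CPM (antisense reads scaled to a library total of 1000000) in P0, 317 in F1, 197 in F3 and 96.5 on HT115. Antisense lin-15B was at 1722 CPM after lin-15b RNAi against 75.6 on HT115. Over both strands lin-15B had 1250 CPM after lin-15b RNAi and 188 in the first untreated library. All 12 germline marker genes reached 25 antisense CPM in each library with separate strands, with a sum of 4098 to 4534. The 9 intestine markers summed to only 5.47 to 12.6 antisense CPM, but on both strands to 6876 to 19179 CPM, highest in F1 and in the lin-15b RNAi library. Of the 8 sperm markers, whose sum was 20.6 to 86.4 antisense CPM, spe-38 was at 0 in every library. The summed antisense level was 16.8 to 67.8 CPM for 8 body muscle markers, 64.2 to 118 for 8 neuron markers and 2.75 to 4.31 for 7 hypodermis markers.

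Every one of the 9 genes gave antisense small RNA at or above 25 CPM on HT115, a level reached by 26.8% of the 20360 protein-coding genes in the tables. Together they held 0.269% of the antisense gene reads on HT115, and 0.261% to 0.282% in the other 4 libraries with separate strands. On HT115 the highest member was atm-1 at 689 antisense CPM and the lowest was brd-1 at 132. Among the 5449 protein-coding genes that reached 25 CPM there, atm-1 stood at percentile 97.9 and atl-1 at percentile 95.2. The remaining members ranged from percentile 56.1 for brd-1 to 85.2 for rad-51. The libraries are of whole animals, so fewer germ cells and less small RNA per cell cannot be told apart.

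**Figure D1:**
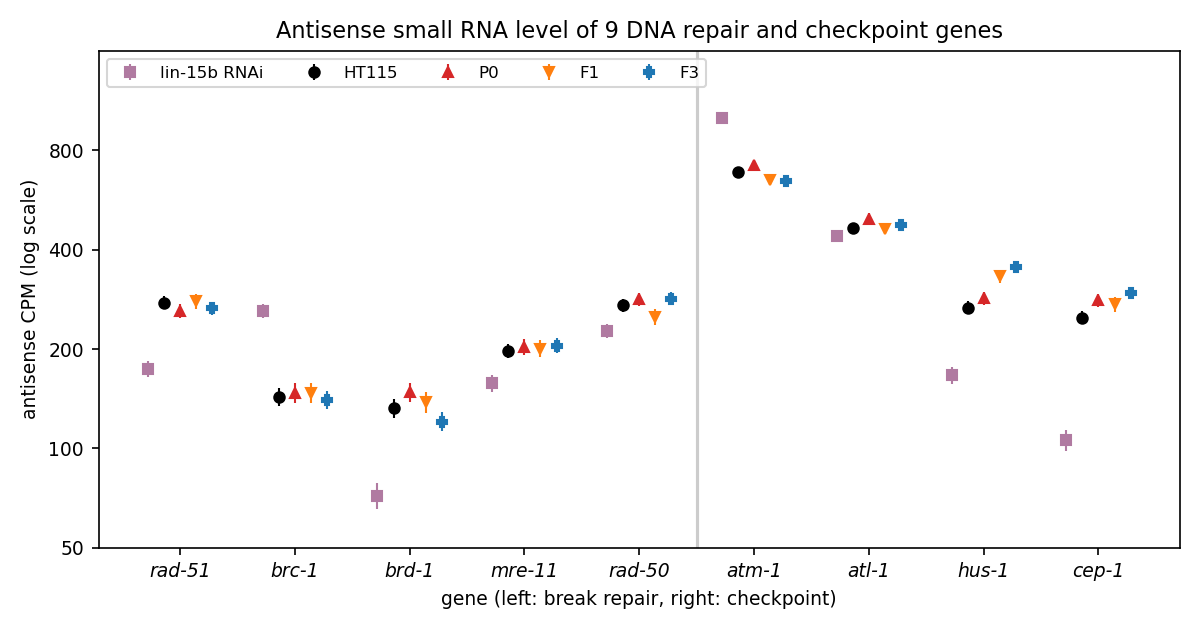
Antisense small RNA levels of the 9 genes in the 5 libraries with separate strands, in CPM, with exact 95% Poisson intervals of the counts as error bars. The HT115, P0, F1 and F3 points of each gene lie close together, and the lin-15b RNAi point lies apart for brc-1 and atm-1 (above) and for cep-1, brd-1, hus-1 and rad-51 (below). For mre-11 and rad-50 it also lies below, but less far.

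The order of the genes was different per length. Annotated exonic length ran from 922 nt for hus-1 to 7769 nt for atl-1. Per kilobase of exon on HT115, hus-1 came first with 289 antisense CPM and rad-51 next with 181, against a median of 72.9 over 5408 measured protein-coding genes with a length. By this measure atm-1 had 90.9 CPM per kilobase and atl-1, the last of the 9, had 59.8. The other 5 lay between 60.5 for brd-1 and 80.2 for mre-11. By these lengths all but hus-1 and rad-51, at percentiles 95.3 and 88.2, were within 1.5-fold of the median gene. For cep-1 (75.8) this depends on the length used. Its annotated exons cover 3278 nt, but its long transcript F52B5.5a has 2093 nt. With the latter length cep-1 would be more than 1.5-fold above the median gene.

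The break repair genes come first. For rad-51, on chromosome IV (10281634 to 10284244, minus strand, WBcel235, Ensembl release 115), the antisense level was 276 CPM in the HT115 library, 260 in P0, 279 in F1, 266 in F3 and 174 after lin-15b RNAi. The lin-15b RNAi library was the low one, and the other 4 lay close together. The coordinates of all members come from this annotation, because the build behind the counts is not given in the sources used here. In the first untreated library, where strands are not separate, rad-51 had 168 CPM over both strands, close to its 176 after lin-15b RNAi and below the 193 to 236 of the other 4.

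Scaled by library totals, the partner genes brc-1 and brd-1 went opposite ways between the libraries. The antisense level of brc-1 (III, 3853102 to 3862968, minus strand) was 143 CPM in the HT115 library, 147 in P0, 148 in F1, 140 in F3 and 261 after lin-15b RNAi. Over both strands it was 285 CPM in the first untreated library, 196 in the lin-15b RNAi library and 96.3 to 118 in the other 4. The first pair of libraries was thus high and the later 4 were low. For brd-1 (III, 6885207 to 6889504, minus strand) the antisense level was 132 CPM in the HT115 library, 148 in P0, 138 in F1, 121 in F3 and 71.8 after lin-15b RNAi. Over both strands it was 73.3 CPM in the first untreated library, 56.6 in the lin-15b RNAi library and 96.7 or more in the others. Here the first pair was low and the later 4 were high. The share of all genes that separate these library sets likewise was not counted. Between HT115 and the first untreated library, 18.5% of 6170 measured genes were 2-fold higher and 9.77% were 2-fold lower. An annotated pseudogene lies inside an intron of brc-1, and 3 tRNA genes and the noncoding RNA genes K04C2.9, K04C2.10 and K04C2.11 lie inside introns of brd-1, none of them over an exon of the member.

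The break-end pair mre-11 and rad-50 varied least among the repair genes. The level of mre-11 (V, 10733925 to 10736868, minus strand) was 197 antisense CPM on HT115, 202 in P0, 201 in F1, 205 in F3 and 157 after lin-15b RNAi. Over both strands it had 155 CPM in the first untreated library and 138 to 171 in the other 5, with the first untreated value inside that range. The antisense level of rad-50 (V, 12245646 to 12251246, plus strand) was 272 CPM in the HT115 library, 283 in P0, 250 in F1, 284 in F3 and 227 after lin-15b RNAi. Over both strands rad-50 had 186 CPM in the first untreated library and 193 to 242 in the others. Neither gene overlaps another annotated gene.

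Of the checkpoint genes, the kinase gene atm-1 (I, 183364 to 208384, plus strand) had the highest level of the 9 in every library. Its antisense level was 689 CPM in the HT115 library, 721 in P0, 650 in F1, 643 in F3 and 1003 after lin-15b RNAi. Over both strands it had 1101 CPM in the first untreated library, 739 in the lin-15b RNAi library and 429 to 567 in the others, so it was, like brc-1, high in the first pair. An annotated pseudogene lies in an atm-1 intron and overlaps no exon of it. The other kinase gene, atl-1 (V, 9634849 to 9645595, minus strand), had 465 antisense CPM on HT115, 497 in P0, 463 in F1, 475 in F3 and 440 after lin-15b RNAi. Over both strands its first untreated value of 401 CPM stood beside 336 to 396 in the others, a flat profile.

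The clamp gene hus-1 and the p53 gene cep-1 had their highest antisense levels in F3, as did mre-11 and rad-50. For cep-1 the interval in F3 (283 to 308 CPM) overlapped that in P0 (267 to 294). The level of hus-1 (I, 3698102 to 3699300, plus strand) was 266 antisense CPM on HT115, 285 in P0, 332 in F1, 355 in F3 and 167 after lin-15b RNAi. That of cep-1 (I, 8324286 to 8328859, plus strand) was 249 antisense CPM on HT115, 281 in P0, 273 in F1, 295 in F3 and 106 after lin-15b RNAi. Over both strands the first untreated library and the lin-15b RNAi library were the low ones for each gene, with 94.2 and 120 CPM for hus-1 and 96.9 and 84.3 for cep-1. The later 4 libraries held 189 to 261 CPM of hus-1 and 176 to 227 of cep-1.

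The next comparison asks whether exposure to oma-1 dsRNA, and descent from exposed animals, moved the small RNAs of genes that the dsRNA did not target. P0, F1 and F3 were each set against HT115, which all 3 comparisons share, so their values are given side by side and are not independent. In P0 none of the 9 genes was 2-fold apart from HT115, where 0.563% of 5866 measured genes were, and none was 1.5-fold apart, where 1.93% were. A gene counted as measured when it had at least 25 CPM in the higher library. In F1 none of the 9 was 2-fold apart (1.93% of 5815 genes) and none 1.5-fold apart (4.18%). In F3 again none was 2-fold apart (0.916% of 5788 genes) and none 1.5-fold apart (5.22%). A count of 0 among 9 is near these background shares and is no result about the members. The median log2 ratio of the 9 was 0.06 for P0, 0.02 for F1 and 0.03 for F3, and that of all measured genes was 0.02, −0.03 and −0.01.

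**Figure D2:**
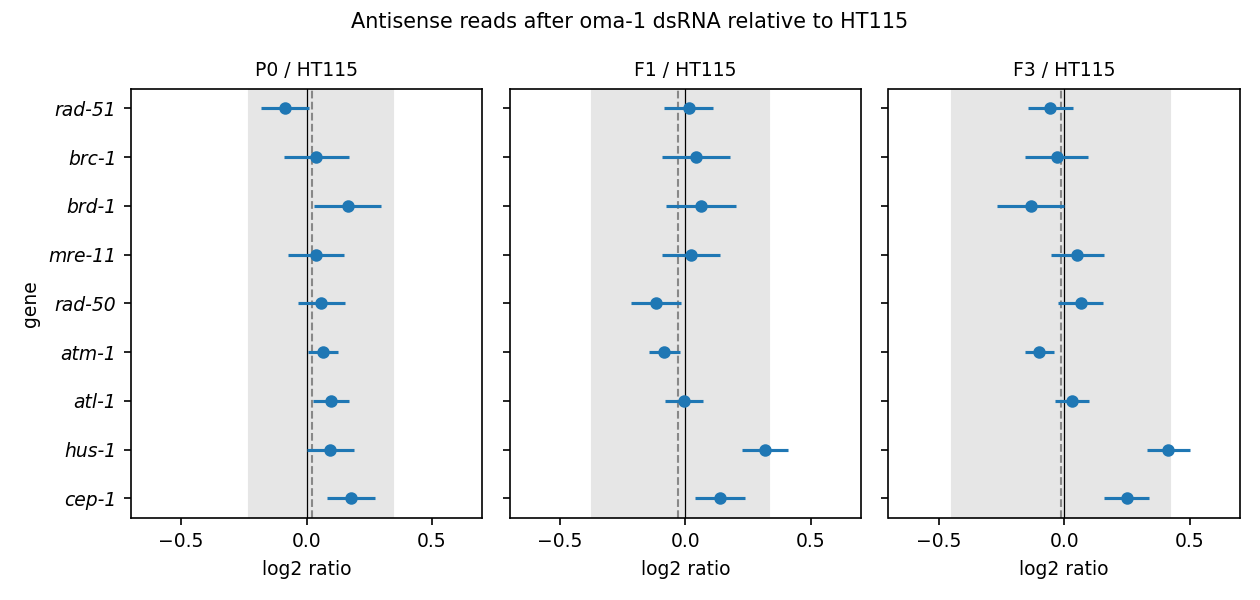
Log2 ratio of antisense CPM to HT115 for the 9 genes in P0, F1 and F3, with exact 95% intervals of the counts as bars, the 5th to 95th percentile of all measured genes as the shaded band and their median as the dashed line. The members lie inside the band, with hus-1 at its upper edge in F1 and F3.

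In F1 and F3 the largest difference was that of hus-1. It was 1.07-fold higher than on HT115 in P0, 1.25-fold in F1 (interval 1.17 to 1.33) and 1.33-fold in F3 (1.26 to 1.41). The F1 and F3 values stood at percentiles 94.7 and 94.8 of all measured genes. The 5th to 95th percentile range of all genes was 0.772 to 1.26-fold in F1 and 0.734 to 1.34-fold in F3. Next to it was cep-1, 1.13-fold higher in P0, 1.10-fold in F1 and 1.19-fold in F3 (1.12 to 1.27), at percentiles 83.3, 83.2 and 85.9. When both strands were summed, hus-1 was below HT115 in P0 and F1 (log2 ratios −0.061 and −0.16) and above it in F3 (0.31). Summed likewise, cep-1 was above HT115 in P0 (0.069), below it in F1 (−0.20) and above it in F3 (0.16). The direction of hus-1 in P0 and of both genes in F1 therefore depends on whether counts and library totals include sense reads. Nearly all hus-1 reads were antisense (1810 of 1851 in F1), so for hus-1 it is mainly the total that differs. With both strands summed, the median log2 ratio of all measured genes was −0.018 in P0, −0.19 in F1 and −0.026 in F3. The F1 library is also the one with the lowest antisense share.

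The remaining 7 genes were also close to HT115. Their folds ran from 0.941 for rad-51 to 1.12 for brd-1 in P0, from 0.922 for rad-50 to 1.04 for brd-1 in F1 and from 0.912 for brd-1 to 1.05 for rad-50 in F3. The kinase gene atm-1 was 1.05-fold HT115 in P0 and 0.944-fold and 0.934-fold in F1 and F3. The recombinase gene rad-51 was 0.941-fold in P0, 1.01-fold in F1 and 0.962-fold in F3. Several of these small differences had the other sign with both strands summed: brc-1, mre-11, rad-50 and atm-1 in P0, rad-51, brc-1, brd-1 and mre-11 in F1, and atl-1 in F3 were above HT115 on antisense reads and below it on both strands.

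A further comparison set lin-15b RNAi against the first untreated library on both strands. The gene lin-15B encodes a repressor of germline genes in somatic cells. None of the 9 genes was 2-fold apart (8.11% of 5818 measured genes) and none was 1.5-fold apart (19.9%). Scaled by library totals, small RNAs of 6 genes were lower after lin-15b RNAi and those of 3 were higher. By median-of-ratios factors rad-51 and rad-50 were below 0 as well (log2 ratios −0.048 and −0.014), and only hus-1 stayed above (0.24). The share of all genes in each direction was not counted. By totals the share of lower genes lies between percentile 29.2, that of mre-11 (log2 ratio −0.17), and percentile 52.9, that of rad-51 (0.06). The 6 lower and 3 higher genes are therefore no result about the members. The lowest were atm-1 at 0.671-fold (0.652 to 0.691) and brc-1 at 0.687-fold (0.649 to 0.728), at percentiles 6.98 and 7.87 of all genes. The highest was hus-1 at 1.27-fold (1.17 to 1.39), at percentile 77.1. The median log2 ratio of the members was −0.20, against 0.04 over all measured genes. Over both strands the summed markers of somatic tissues differed between these libraries as well: body muscle markers had 640 CPM in the first untreated library and 2335 after lin-15b RNAi, intestine markers 6876 and 16086, and hypodermis markers 95.2 and 243. Neuron markers had 84.0 and 65.6 CPM, sperm markers 55.1 and 64.6, and germline markers 4507 and 5069. The part of these in the members' ratios was not tested.

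**Figure D3:**
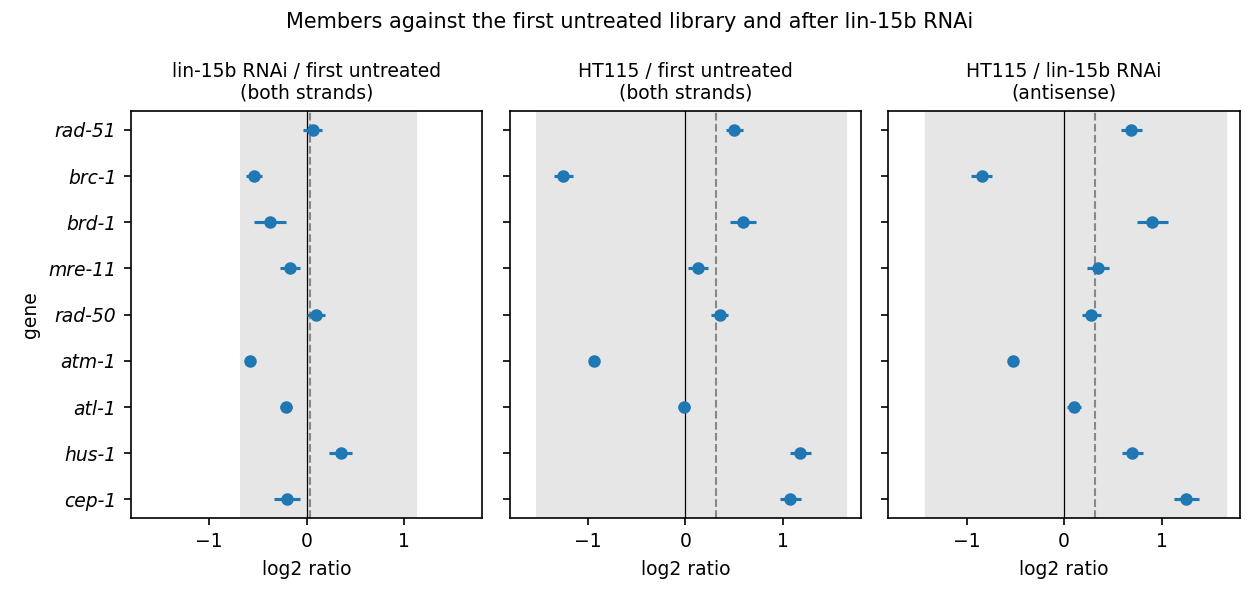
Log2 ratios of the 9 genes for lin-15b RNAi over the first untreated library and for HT115 over the first untreated library, both strands, and for HT115 over lin-15b RNAi, antisense, with exact 95% intervals of the counts as bars, the 5th to 95th percentile of all measured genes as the shaded band and their median as the dashed line. All points lie inside the band, and brc-1 is lowest in both HT115 panels.

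Larger differences appeared between the libraries without RNAi, HT115 and the first untreated one. On both strands hus-1 was 2.26-fold (2.10 to 2.44) and cep-1 2.11-fold (1.96 to 2.28) higher on HT115. In the other direction brc-1 was 2.38-fold lower (2.22 to 2.55). These 3 genes were the members called at 2-fold: 2 higher, where 18.5% of 6170 measured genes were called, and 1 lower, where 9.77% were. At 1.5-fold, brd-1 joined the higher genes at 1.51-fold and atm-1 the lower ones at 1.92-fold lower, which gave 3 higher (background 35.4%) and 2 lower (17.0%). These counts of members are near the background shares. The other members were rad-51 at 1.42-fold, rad-50 at 1.28-fold, mre-11 at 1.10-fold and atl-1 at 0.991-fold.

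Because these libraries differ widely, the directions depend on the scaling. Scaled by library totals, the median log2 ratio over all genes was 0.31, and that of the members was 0.35. Called genes were 1142 higher and 603 lower by totals, but 379 higher and 1277 lower by median-of-ratios factors and 396 higher and 1250 lower by TMM factors. Under either of those factors brc-1 and atm-1 were the called members, with log2 ratios of −1.81 and −1.50 by median-of-ratios. There hus-1 stood at 0.62 and cep-1 at 0.52, below 2-fold but still above 0, while rad-51, mre-11 and rad-50 moved below 0. Relative to the median gene, brc-1 was lower by 1.56 and atm-1 by 1.25 on the log2 scale, and hus-1 and cep-1 were higher by 0.87 and 0.77. The log2 ratio of brd-1, 0.59 by totals, was only 0.28 above the median gene, so its rise depends largely on the scaling. The first untreated and HT115 libraries also differ in the food that the labels name and in the growth notes, and the part of each was not tested.

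The lin-15b RNAi library, whose antisense reads are separate, again had brc-1 and atm-1 as the lowest ratios. Antisense cep-1 was 2.38-fold higher on HT115 than after lin-15b RNAi (2.18 to 2.60) and was the 1 member called higher, where 19.4% of 5772 genes were. No member was called lower, where 9.44% were. The next folds were 1.87 for brd-1, 1.62 for hus-1 and 1.61 for rad-51. At the other end were 0.557 for brc-1 and 0.697 for atm-1. This comparison shares HT115 with the one above.

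The tables count reads per transcript, and the reads of brc-1 lay in different places in the first pair of libraries and the later 4. One annotated brc-1 transcript, C36A4.8b, is a short one of 354 nt made of the last 2 exons (III, 3853238 to 3854286), against 1955 nt for the long transcript C36A4.8a, so it covers 18.1% of that length. It took 34.4% (32.8 to 36.1) of the brc-1 reads on both strands in the first untreated library and 35.0% in the lin-15b RNAi library. On HT115 it took 9.25% (7.69 to 11.1), and in P0, F1 and F3 it took 8.92%, 7.74% and 8.23%. The shift of 25.2 percentage points between HT115 and the first untreated library stood at percentile 98.4 of 2441 genes with several transcripts and at least 200 reads. On antisense reads the shift from lin-15b RNAi to HT115 was 27.1 points, at percentile 99.0 of 2090 genes.

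**Figure D4:**
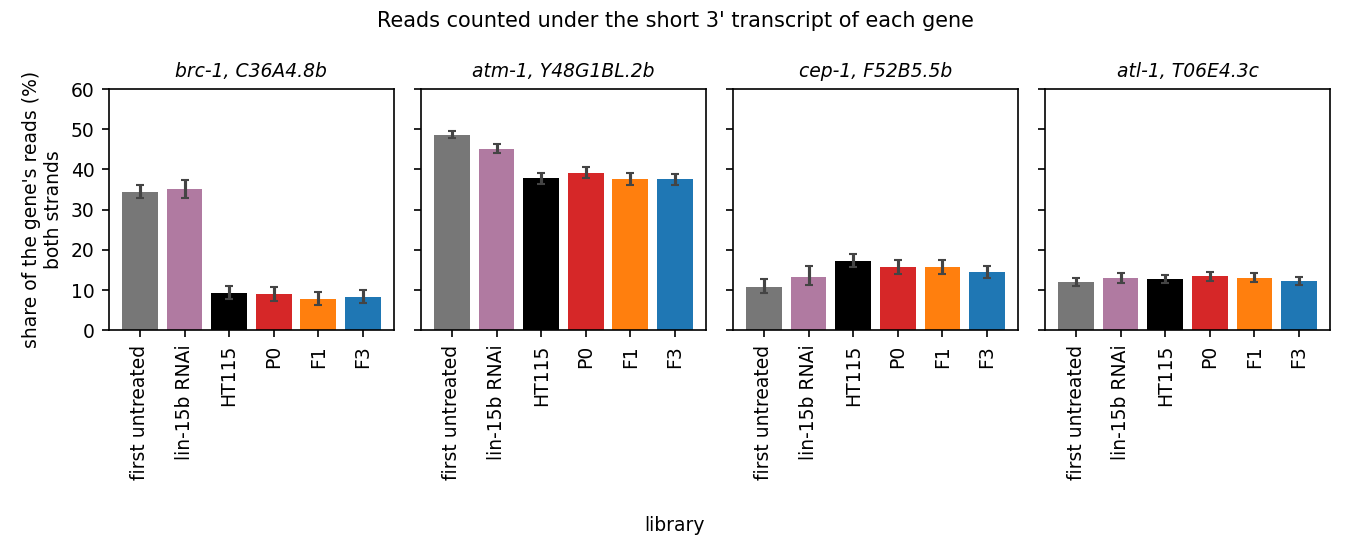
Share of a gene's reads, in % on both strands, counted under the short 3′ transcript of brc-1, atm-1, cep-1 and atl-1 in the 6 libraries, with 95% Wilson intervals as error bars. The brc-1 bars are near 35.0% in the first untreated and lin-15b RNAi libraries and at 9.25% or less in the others.

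Reads over sequence shared by transcripts appear to be divided evenly between them in these tables, since the 3 transcripts of brd-1 held near-equal shares. On that reading the shared 3′ part of brc-1 carried 196 CPM (185 to 208) in the first untreated library, 137 in the lin-15b RNAi library and 21.9 (17.9 to 26.5) on HT115. That is an 8.97-fold lower level on HT115 than in the first untreated library. The upstream part carried 88.8, 58.6 and 96.4 CPM in the same libraries, a ratio of 1.09 between HT115 and the first untreated one. By this estimate the difference in brc-1 lay in the last exons. The even division was less clear in the first untreated library, where the nested transcripts of mre-11 took 38.4% and 61.6%, than after lin-15b RNAi, where they took 48.5% and 51.5%. Shares of other members were less even after lin-15b RNAi too. There T06E4.3a and T06E4.3b of atl-1 took 39.4% and 47.6%, against 43.4% and 43.9% on HT115. Likewise T04H1.4a.2 and T04H1.4b.2 of rad-50 took 21.2% and 28.1%, against 24.6% and 24.3% on HT115. The transcript models used for counting may differ from the annotation used here.

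The kinase gene atm-1 showed a smaller shift of the same kind. Its shorter transcript Y48G1BL.2b, 5106 of 7581 nt, took 48.6% of the reads in the first untreated library, 45.2% in the lin-15b RNAi library and 37.8% on HT115, a shift of 10.9 points. The estimated shared part was 1071 CPM in the first untreated library and 429 on HT115, 2.50-fold lower. The part upstream of it had an estimated 139 CPM on HT115 (124 to 154) against 30.2 in the first untreated library (10.8 to 49.5). By this estimate the parts of atm-1 differed in opposite directions. The 30.2 CPM are a remainder of 341 among 12457 reads and rest on even division, which was less clear in that library. The interval does not cover departures from it. In cep-1 the part shared with the short transcript F52B5.5b was 31.6 CPM in the first untreated library and 105 on HT115, 3.31-fold higher, and the upstream part was 65.3 and 97.6 CPM. In atl-1 the shared part held 35.7% to 40.2% of the reads in all 6 libraries.

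Of the 8 members with several transcripts, 2 (brc-1 and atm-1) shifted by 10 points or more between HT115 and the first untreated library, where 18.8% of genes did. On antisense reads against lin-15b RNAi 1 of 8 did, where 19.8% of genes did. In P0, F1 and F3 against HT115 no member did, where 0.400%, 0.461% and 0.488% of genes did, so these counts are near the background. The largest shifts of a member were 3.39, 4.60 and 2.75 points. The longer transcript of mre-11 took 48.7% to 51.9% of its reads in the 5 libraries other than the first untreated one.

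Small RNAs of the 9 genes were mostly antisense. On HT115 the antisense share of a member's reads was 89.8% for rad-50 to 98.5% for hus-1, and the median measured protein-coding gene had 90.6%. The share of hus-1 stayed at 97.3% to 98.9% in all 5 libraries, while that median was 76.1% in F1. The other members except rad-51 had their lowest share in F1, down to 72.1% for rad-50. After lin-15b RNAi rad-51 was the lowest of the members with 69.4%, from 508 sense reads among 1658, where the median gene had 84.3%. Among the other repair and checkpoint genes described below, the share in that library ran from 46.6% for rtel-1 to 100% for egl-1. The latter rests on 12 reads. A sense read can be a fragment of the messenger RNA.

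By root mean square difference of log2 antisense CPM over the 5 libraries with separate strands, each member was matched with the protein-coding gene most like it among 5704. The closest match was rad-51 with ntl-4 (0.04), followed by brc-1 with gtap-1, mre-11 with crn-3 and rad-50 with coh-3 (0.05 each). Next were brd-1 with F42A9.8 and cep-1 with F33G12.3 (0.07 each), atl-1 with copb-2 (0.09), and atm-1 with toe-1 and hus-1 with noca-1 (0.10 each). A low value says only that the profiles lie close.

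The 9 genes were then set beside 52 other repair and checkpoint genes in 7 lists. Of these, 47 reached 25 antisense CPM on HT115. Among recombination and resection partners 14 of 15 did, from rfs-1 (57.5 CPM), which helps load RAD-51, to smc-6 (405), a subunit of the SMC-5/6 complex. Among checkpoint partners and p53 targets 6 of 8 did, from mrt-2 (27.5), which sits in the clamp with HUS-1, to the meiotic kinase gene chk-2 (794). Below 25 CPM were egl-1 and ced-13, the cell death genes that CEP-1 switches on. Antisense egl-1 was at 1.64 to 4.81 CPM, and ced-13 had 0 antisense reads in all 5 libraries. In F1, the shallowest on antisense reads, the upper end of the exact interval for ced-13 was 0.677 CPM.

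End joining genes were all at 25 CPM or more on HT115, from cku-80 (145) to polq-1 (185), the polymerase of theta-mediated joining. All 9 genes of crosslink repair and structure-specific nucleases were, from mus-81 (30.4) to slx-1 (409). Of excision repair genes 6 of 8 were, from the uracil glycosylase gene ung-1 (46.4) to the nuclease gene xpg-1 (397). All 4 mismatch repair genes were, from msh-2 (162) to msh-6 (312), and all 4 translesion polymerase genes were, from rev-3 (88.9) to polk-1 (172).

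**Figure D5:**
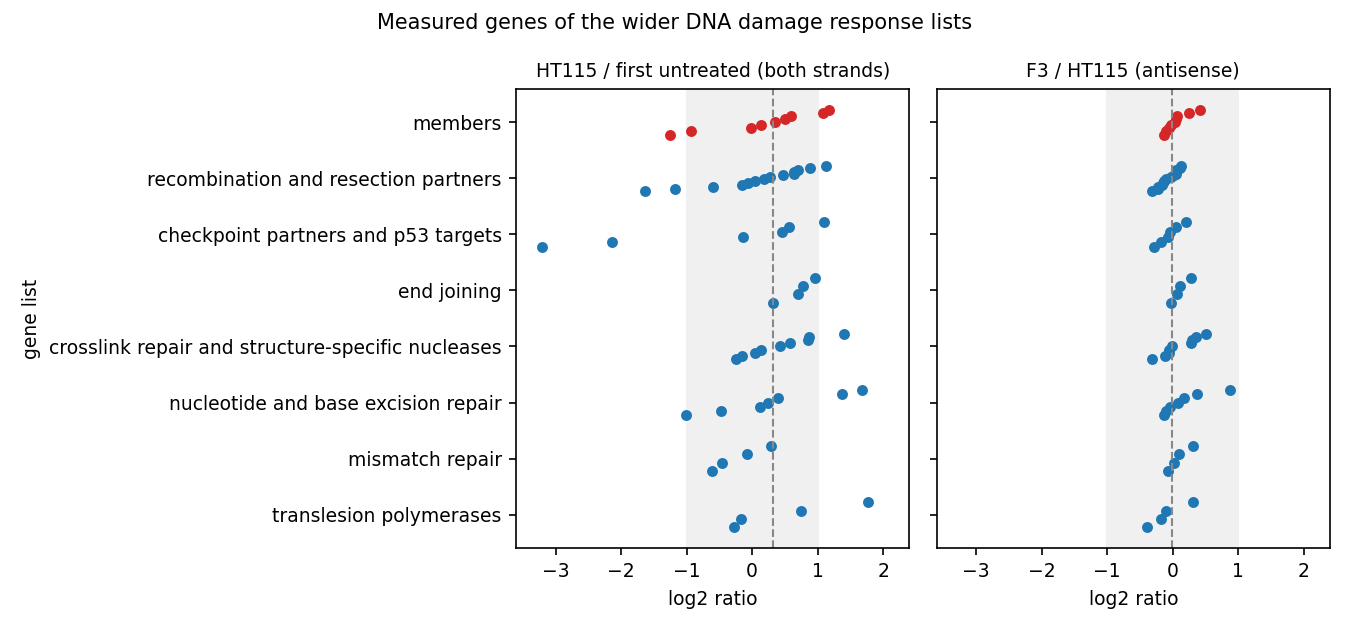
Log2 ratios of HT115 to the first untreated library (both strands) and of F3 to HT115 (antisense) for the measured genes of the 7 lists and the 9 members, with 1 point per gene, the range within 2-fold shaded and the median of all genes dashed. On the HT115 side 6 list genes lie above the shaded range and 5 below, and on the F3 side none lies outside it.

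In the oma-1 comparisons 0 of 49 measured list genes were 2-fold apart from HT115 in P0, where 0.563% of all genes were. In F1 it was 1 of 48 (1.93% of all genes) and in F3 0 of 48 (0.916%), so the counts are near the background. The 1 gene was csb-1, which acts in transcription-coupled repair, with 48.1 antisense CPM in F1 against 22.6 on HT115 (2.13-fold, 1.75 to 2.60). In F3, whose note names ultraviolet light, csb-1 was 1.84-fold HT115, and in P0 it was 1.89-fold. The median log2 ratio of the nucleotide and base excision list was 0.09 in F3 and that of all genes was −0.01. The other lists lay on both sides. End joining was at 0.09, mismatch repair at 0.06 and crosslink repair at −0.01. Checkpoint partners were at −0.05, recombination partners at −0.06 and translesion polymerases at −0.14. After lin-15b RNAi 0 of 47 list genes were 2-fold apart from the first untreated library, where 8.11% of all genes were.

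Between HT115 and the first untreated library 11 of 48 list genes were 2-fold apart, 6 higher (18.5% of all genes) and 5 lower (9.77%), again near the background. The lowest was chk-2 at 0.108-fold, then mrt-2 at 0.226-fold and rpa-1, a subunit of the protein that binds single-stranded DNA, at 0.322-fold. The highest was polh-1, the translesion polymerase eta gene, at 3.40-fold, then the base excision nuclease gene apn-1 at 3.21-fold and the crosslink nuclease gene fan-1 at 2.64-fold. On antisense reads against lin-15b RNAi, a comparison that shares HT115, 10 of 48 list genes were 2-fold higher (19.4% of all genes) and 3 were 2-fold lower (9.44%).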

How the data were processed

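Small RNAs bound by WAGO-4 were sequenced in 6 libraries. The deposited tables hold whole-number counts per annotated transcript, which the authors made after alignment with Bowtie2 (per the submitters' processing notes). Not given in the sources used here are the version of that aligner, the build, the annotation and how reads were assigned to transcripts. Of the tables, 5 have a column for each strand, and the single column of the first untreated library was read as the sum of both, which the labels do not state. Strand was judged from microRNA genes, 0.202% to 0.417% of whose reads fell in the column taken as antisense. Per library, 3 lines name no gene. Their reads, 0.000106% to 0.000296%, did not enter totals.

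Counts were summed per gene and divided by the library's gene total, which gives CPM. Comparisons with the first untreated library, and of HT115 with lin-15b RNAi, used the 45162 genes present in both tables, so their CPM differ slightly from the levels. Log2 ratios had 0.5 added to each count. Genes reaching 25 CPM in the higher library were measured, and folds of 2 and 1.5 were the call rules. Intervals were exact Poisson for levels, exact conditional binomial for folds and Wilson for shares, at 95%. The level in the upstream part of a gene was the total minus the shared part, and the shared part was the short transcript's reads multiplied by the number of transcripts. Python 3.11.15 with pandas 2.3.3 and scipy 1.17.1 was used, and TMM factors came from edgeR 4.0.16 in R 4.3.3. The calculation was tested on simulated data.

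The members and the wider lists were chosen with earlier results of these data known. Named were the 9 members, the highest and lowest gene of each wider list on HT115, genes 2-fold apart (the 6 largest where there were more), the most similar gene to each member and overlapping genes. Alternatives were other scalings, an added count of 5, no minimum level, the highest transcript only and both strands summed. Further ones were other reference libraries, totals without the 20 most abundant genes, and counts without the brc-1 transcript C36A4.8b. Sequences were not used here.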

Additional observations from a re-analysis of the deposited data

How the results depend on the processing

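Of 342 values of single members under the alternatives, 238 stayed within their counting interval, 104 moved and 0 reversed a called direction. A reversal could be recorded only for brc-1, hus-1 and cep-1 between HT115 and the first untreated library, so the 0 says nothing about uncalled members. An added count of 5, no minimum level and totals without the 20 most abundant genes each kept 45 of 45 values. Dropping the minimum level cannot change a member's ratio. By TMM 27 of 45 values moved. Leaving out the short brc-1 transcript C36A4.8b was tried for HT115 against the first untreated library, and was chosen after seeing the data. It moved 1 of 9 values, that of brc-1, which was then less than 2-fold lower on HT115. The P0 median log2 ratio of the 9 genes was −0.021 with both strands summed, and 0.32 when the reference was the first untreated library and both strands were summed, where 4 members were 2-fold apart. The F1 median was −0.22 with both strands summed, and with that reference and both strands 3 members were 2-fold apart. The F3 median was 0.10 by median-of-ratios, 0.15 by TMM and 0.37 with that reference and both strands, where 4 members were 2-fold apart. For HT115 against the first untreated library the median was −0.20 by median-of-ratios, −0.19 by TMM and 0.10 with the highest transcript only, where 1 member was called; against lin-15b RNAi on antisense reads, an alternative chosen after seeing the data, 1 was called. The share of all genes 2-fold apart changed from 1.93% to 6.32% in F1 and from 0.916% to 2.26% in F3 with both strands summed, to 29.6%, 32.8% and 30.7% in P0, F1 and F3 against the first untreated library on both strands, and to between 39.1% and 61.9% with no minimum level. The higher share of calls for lin-15b RNAi was 77.8% by totals, 67.0% by median-of-ratios and 64.7% by TMM. In F1 it was 77.7% by totals and 87.9% and 89.1% by those factors, and in F3 it was 35.8%, 47.3% and 54.1%. The cause of these changes was not tested. No paired analysis was possible because each group has 1 library. Depth limits the counting intervals; the spread between animals is unknown.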
